A study of Mus musculus with 2 samples.

Results

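Collagen chains are modified, folded and trimmed by a set of dedicated enzymes, chaperones and proteases, and 10 genes of this machinery were followed in mouse perivascular cells with and without KAI1. The genes were taken by name, 10 of the 20211 gene symbols measured, and all 10 were expressed above the filter used below. They comprise P4ha1, P4ha2 and P4ha3, which encode the catalytic alpha subunits of collagen prolyl 4-hydroxylase, and Plod1, Plod2 and Plod3, which encode the lysyl hydroxylases. Serpinh1 encodes the collagen chaperone HSP47, Bmp1 a procollagen C-proteinase, Pcolce the enhancer of that proteinase, and Creb3l1 a transcription factor of the endoplasmic reticulum (ER).

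RNA was sequenced from primary perivascular cells (PCs) of the aorta of C57BL/6 mice, with 1 library from WT cells and 1 library from Kai1 KO (Kai1-/-) cells. Kai1 is also named Cd82 and encodes a tetraspanin of the cell surface. Per the labels both cultures were grown in DMEM with 10% FBS, and the study's culture methods give a higher serum content for primary PCs. The study's methods describe its purchased C57BL/6 mice as adults of either sex. Which sex, and how many animals, stood behind each library and the design of the deleted allele were not given in the sources used here.

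Newly made procollagen chains are hydroxylated on proline and lysine in the ER before they fold. Hydroxyproline stabilises the triple helix, and hydroxylysine carries sugars and takes part in the crosslinks that later join collagen molecules. HSP47 binds the folded helix until it leaves the ER, and outside the cell the propeptides are cut off so that fibrils can form. Vascular mural cells and fibroblasts make much of the fibrillar collagen of the arterial wall.

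The values are RPKM, reads per kilobase of transcript scaled to the mapped reads of the library, so that levels of different genes can be compared per length. Ratios of Kai1-/- over WT are on the log2 scale, after addition of 0.1 RPKM to each value. There are no replicates, so no test between genotypes was possible from these values. The study's methods name Cuffdiff for its test, with a 2-fold limit and a cutoff on the adjusted p value. Only the fold part is used here. Animal, culture and library preparation are part of every difference given here. The 95% intervals given below come from estimated reads and cover counting error only. In bulk RNA, fewer cells of a type and less RNA per cell cannot be told apart.

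The steps of low RPKM values corresponded to about 29500000 reads for WT and 26650000 for Kai1-/-. The targeted gene Cd82 had 12.8 RPKM in WT and 2.62 RPKM in Kai1-/- PCs (log2 ratio -2.25). The Y-linked genes Ddx3y (6.56 RPKM), Eif2s3y (3.17), Kdm5d (0.941) and Uty (0.479) were detected in WT and all listed at 0 in Kai1-/- PCs. Y-linked RNA was thus seen in the WT library only, so the sex of the cells may differ and cannot be told apart from genotype. Genes were kept at a mean of 1 RPKM or more (10068 genes), and 7.81% of them lay more than 2-fold lower in the Kai1-/- library and 7.98% lay over 2-fold higher. The median log2 ratio of these genes was 0.08. With both libraries scaled to Gapdh, which had a log2 ratio of 0.50, this median was -0.41, and with both libraries scaled to the same RPKM sum it was -0.39.

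Creb3l1 had the lowest Kai1-/- to WT ratio among the 10 genes, and it was the only one past 2-fold on the deposited scale. This 1 of 10 genes stands beside the 7.81% of all genes that were more than 2-fold lower, and 0 of 10 genes were more than 2-fold higher. The log2 ratio was below 0 for 8 of the 10 genes, against 44.9% of all genes, and above 0 for P4ha3 and Plod2. The median log2 ratio of the 10 genes was -0.48, beside 0.08 for all genes. With the Gapdh scaling 5 of the 10 genes passed 2-fold (Creb3l1, Bmp1, P4ha2, Pcolce and P4ha1), beside 18.4% of all genes, and with the same RPKM sum 4 of them did, all but P4ha1, beside 18%. In both cases 9 of the 10 ratios lay below 0, since that of P4ha3, 0.40 as deposited, was then -0.10 or -0.08. With Gapdh their median was -0.97 beside -0.41 for all genes, a shift that the scaling gives to all genes nearly alike.

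**Figure D1:**
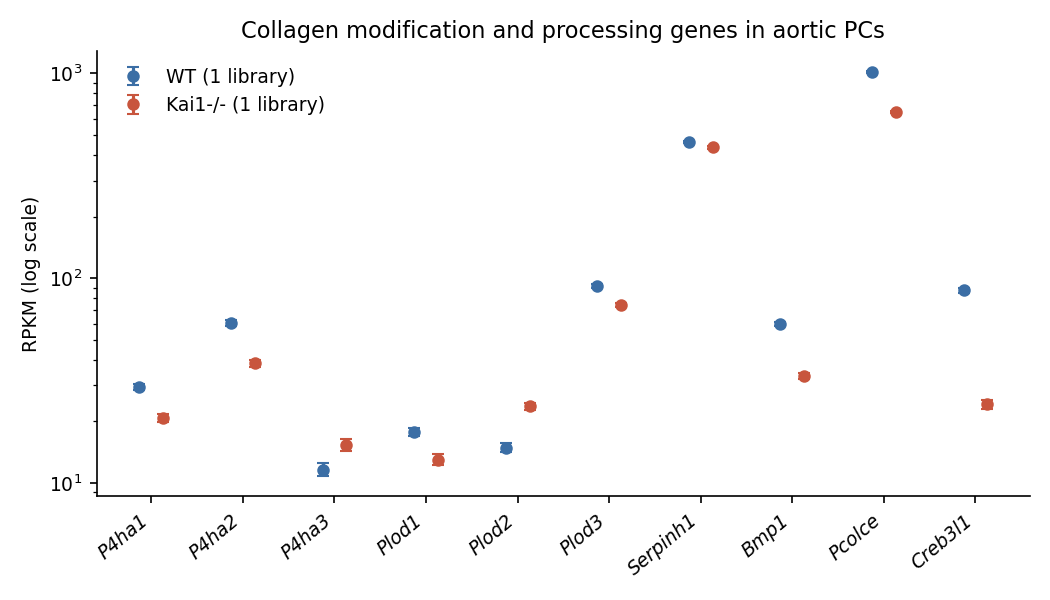
RPKM on a log scale of the 10 collagen modification and processing genes in the WT library (blue) and the Kai1-/- library (red), 1 library each. Bars are 95% intervals from estimated reads and cover counting error only. Pcolce and Serpinh1 were the highest in both libraries, and Creb3l1 had the widest gap, from 87.3 in WT to 24.3 in Kai1-/-.

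Levels of the 10 genes spanned a wide range. In WT PCs they ran from an RPKM of 11.6 for P4ha3 to 1018 for Pcolce, and in Kai1-/- PCs from 13.0 for Plod1 to 648 for Pcolce. Pcolce ranked 137 of all 20211 symbols in WT PCs and 220 in Kai1-/- PCs. Serpinh1 ranked 257 and 300. The other 8 genes ranked between 945 and 4189 in both libraries. The summed RPKM of the 10 genes was 1854 in WT PCs and 1326 in Kai1-/- PCs, and Pcolce made up most of the difference.

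Promoter sequence from RefSeq (build GRCm38.p6) was at hand for 7 of the 10 genes, with no entry for Plod2, Bmp1 and Creb3l1. The 250 bases before each gene start were searched on both strands for the core ACGTG. The core occurs in elements bound by hypoxia-inducible factors and, preceded by TG, in elements bound by factors of the CREB3 family. It was present in 4 of the 7 genes, and in 16.6% of all 32851 promoters of that length. Those promoters were not limited to expressed genes or matched in base content, so the shares are of unlike sets. A match describes letters only and no binding was measured. The matches are shown 5′ to 3′ on the strand of the gene, 30 bases each with the match in capitals, where CACGT is the same core on the other strand. They lie at chr10:59323266-59323295 (plus strand) for P4ha1, chr11:54100834-54100863 (plus) for P4ha2, chr5:136986953-136986982 (plus) for Plod3 and chr7:99353393-99353422 (minus) for Serpinh1.
P4ha1: ggtgtgacagagcgCACGTagcgagggctg
P4ha2: tgtgcatcgcatACGTGcagcgcgtggcgg
Plod3: cttgaagtcattACGTGatgttcccttgga
Serpinh1: accctgcttttcCACGTccaggaccgcgga

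The 4 genes with a match had log2 ratios from -0.66 to -0.09, and the 3 genes searched that had none were Plod1 (-0.45), Pcolce (-0.65) and P4ha3 (0.40). The ratios of genes with and without a match thus overlapped. The overlapping core TGACG was found in 1 of the 7 genes, P4ha2, and in 17.8% of all promoters. It stood apart from the ACGTG match, at chr11:54100699-54100728, where the sequence is tcccgatcttagTGACGccagcctcctgca with TGACG in capitals. None of the matches thus held both cores in one run.

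Prolyl 4-hydroxylase converts the proline that precedes glycine in the collagen repeat, and its alpha subunits carry the active site. P4ha2, on chromosome 11 from 53913597 to 53945167 (build mm9, as all gene positions here), had 60.7 RPKM in WT and 38.5 RPKM in Kai1-/- PCs. It was the highest of the 3 alpha subunits in both libraries. Its log2 ratio was -0.66, with a 95% counting interval from -0.74 to -0.58. P4ha1, the widely expressed form, on chromosome 10 from 58786044 to 58836052, had 29.6 RPKM in WT and 20.8 RPKM in Kai1-/- PCs. Its log2 ratio was -0.50 (-0.58 to -0.43), close to that of P4ha2. P4ha3, on chromosome 7 from 107434030 to 107468209, was the lowest of the family in both libraries, with 11.6 RPKM in WT and 15.4 RPKM in Kai1-/- PCs. Its log2 ratio was 0.40 (0.26 to 0.55) as deposited and -0.08 to -0.10 with the libraries scaled to the same RPKM sum or to Gapdh, so that its direction depended on the scaling.

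The make-up of the family does not depend on the scaling of the libraries. P4ha3 made up 11.4% of the summed RPKM of the 3 alpha subunits in WT PCs and 20.6% in Kai1-/- PCs. P4ha2 made up 59.6% and 51.5%, and P4ha1 29.0% and 27.9%. The ratio of P4ha2 to P4ha3 was 5.21 in WT PCs and 2.49 in Kai1-/- PCs. The ratio of P4ha2 to P4ha1 was 2.05 and 1.85, so that these 2 subunits kept nearly the same proportion. P4hb, which encodes protein disulfide isomerase and is the beta subunit shared by all alpha forms, had 328 RPKM in WT and 384 RPKM in Kai1-/- PCs. Its RPKM was 3.22 times the sum of the alpha subunits in WT PCs and 5.14 times that sum in Kai1-/- PCs.

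**Figure D2:**
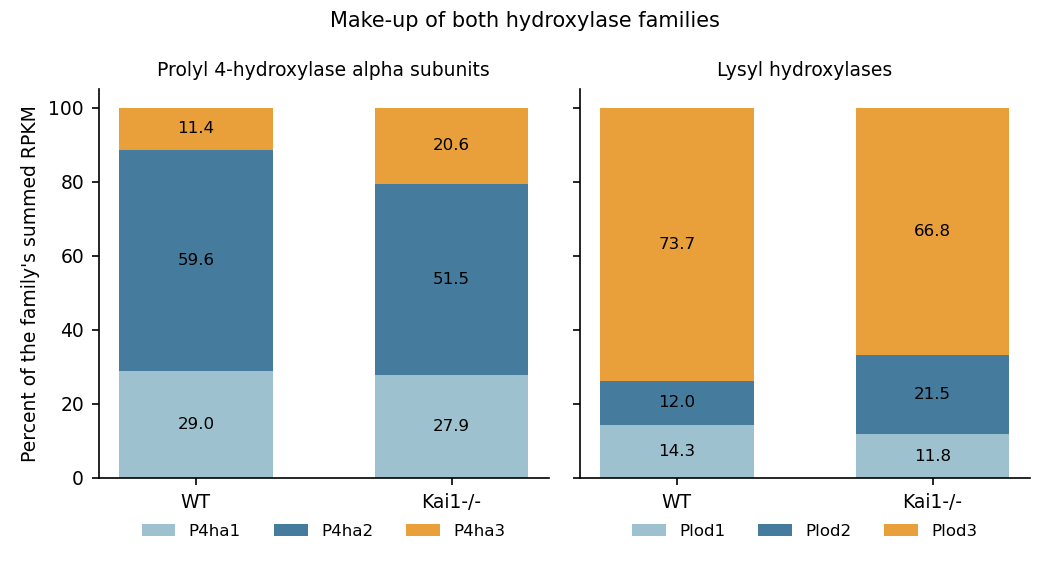
Percent of each hydroxylase family's summed RPKM taken by its 3 genes in the WT and the Kai1-/- library, 1 library each. The share of P4ha3 went from 11.4% to 20.6% and that of Plod2 from 12.0% to 21.5%, and these shares do not depend on how the libraries were scaled.

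The lysyl hydroxylases differ in the lysines they act on. Plod3, on chromosome 5 from 137462889 to 137472518, also transfers sugars to hydroxylysine and was the highest of the family in both libraries. Its level was 91.7 RPKM in WT and 73.9 RPKM in Kai1-/- PCs (log2 ratio -0.31, -0.36 to -0.26). Plod3 shares 529 exon bases with Znhit1 on the opposite strand, whose level was 73.7 RPKM in WT and 126 RPKM in Kai1-/- PCs. The sources used here do not say whether reads were counted by strand, so reads from these shared bases may have been assigned to either gene. Plod1, on chromosome 4 from 147283862 to 147310876, modifies lysines of the triple helix. Its level was 17.8 RPKM in WT and 13.0 RPKM in Kai1-/- PCs (log2 ratio -0.45, -0.56 to -0.34).

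Plod2, on chromosome 9 from 92437061 to 92503266, acts on lysines of the telopeptides, the chain ends where crosslinks start. It had 14.9 RPKM in WT and 23.7 RPKM in Kai1-/- PCs, and was the only one of the 10 genes that was higher in the Kai1-/- library under all scalings tried. Its log2 ratio was 0.67 (0.58 to 0.77) as deposited and 0.17 with the Gapdh scaling, in neither case a 2-fold difference. Of all genes kept, 17.2% had a higher log2 ratio. Plod2 made up 12.0% of the summed lysyl hydroxylase RPKM in WT PCs and 21.5% in Kai1-/- PCs. The share of Plod3 was 73.7% and 66.8%, and that of Plod1 14.3% and 11.8%. The order of the lower 2 genes was thus exchanged. Plod2 stood at 0.836 times the RPKM of Plod1 in WT PCs and at 1.82 times in Kai1-/- PCs, while the ratio of Plod3 to Plod1 was 5.16 and 5.68.

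Serpinh1, on chromosome 7 from 106493885 to 106501740, differed least as deposited. Its level was 462 RPKM in WT and 435 RPKM in Kai1-/- PCs, from about 29888 and 25426 estimated reads. The log2 ratio was -0.09 (-0.11 to -0.06), and with the Gapdh scaling it was -0.59. The main client of HSP47 is type I collagen, whose chains Col1a1 and Col1a2 stood at 924 and 824 RPKM in WT and at 534 and 377 RPKM in Kai1-/- PCs. Relative to Col1a1 in the same library, Serpinh1 was higher in Kai1-/- (0.816) than in WT PCs, where it had close to 0.5 of the RPKM of that chain. Relative to Col1a2 it was 0.561 in WT and 1.16 in Kai1-/- PCs. Serpinh1 was thus below both chains in WT PCs, and above Col1a2 and below Col1a1 in Kai1-/- PCs.

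Bmp1 and Pcolce act outside the cell, where the proteinase removes the C-propeptide and the enhancer binds that propeptide and speeds the cut. Bmp1, on chromosome 14 from 70874364 to 70920067, had 59.9 RPKM in WT and 33.3 RPKM in Kai1-/- PCs. Its log2 ratio of -0.84 (-0.91 to -0.78) was the lowest of the 10 genes after that of Creb3l1, and it passed 2-fold with the Gapdh scaling, at -1.34. Pcolce, on chromosome 5 from 138046331 to 138055012, had 1018 RPKM in WT and 648 RPKM in Kai1-/- PCs (log2 ratio -0.65, -0.68 to -0.63). It overlaps 112 exon bases of Fbxo24, at 0.0517 RPKM in WT and listed at 0 in Kai1-/- PCs. The ratio of Pcolce to Bmp1 was 17.0 in WT PCs and 19.4 in Kai1-/- PCs. Relative to Col1a1, Bmp1 was 0.0648 in WT PCs and 0.0625 in Kai1-/- PCs, and Pcolce was 1.10 and 1.21. Relative to Col1a2, Bmp1 was 0.0727 in WT and 0.0885 in Kai1-/- PCs, and Pcolce was 1.24 and 1.72. The proportion of the proteinase and its enhancer to Col1a1 was thus closer between the libraries than their proportion to Col1a2, and Serpinh1 differed more than either gene relative to both chains.

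Creb3l1 encodes OASIS, a factor held in the ER membrane until the proteases encoded by Mbtps1 and Mbtps2 release it, and known in bone as an activator of type I collagen genes. Its RPKM was 87.3 in WT PCs (85.1 to 89.5, Poisson counting interval) and 24.3 in Kai1-/- PCs (23.1 to 25.5). The Kai1-/- value was 27.8% of the WT value, and the log2 ratio was -1.84 (-1.93 to -1.77). Only 2.71% of all genes kept had a lower ratio. Over all settings tried its log2 ratio lay between -2.34 and -1.81. In WT PCs Creb3l1 stood above P4ha1, P4ha2 and Bmp1, and in Kai1-/- PCs it stood below P4ha2 and Bmp1 and close to Plod2. It ranked 991 of all symbols in WT PCs and 2746 in Kai1-/- PCs.

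The relatives and activators of Creb3l1 in the wider list (Creb3, Creb3l2, Mbtps1 and Mbtps2) did not differ by 2-fold as deposited. Creb3l2, its nearest relative, had 7.84 RPKM in WT and 7.45 RPKM in Kai1-/- PCs (log2 ratio -0.07). Creb3 had 88.1 and 53.2 (log2 ratio -0.73), a difference that the Gapdh scaling takes past 2-fold. The ratio of Creb3l1 to Creb3l2 was 11.1 in WT PCs and 3.26 in Kai1-/- PCs, and that of Creb3l1 to Creb3 was 0.991 and 0.456. Mbtps1 had 18.2 RPKM in WT and 23.9 RPKM in Kai1-/- PCs, and Mbtps2 had 1.46 and 2.04. Both were higher in the Kai1-/- library as deposited, at log2 ratios of 0.39 and 0.46, which is less than the 0.50 of Gapdh.

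Creb3l1 lies on the same chromosome as the targeted gene. It spans chromosome 2 from 91822485 to 91864659 on the minus strand, and Cd82 spans 93259268 to 93303297, with 1.395 Mb between them. Of the 8 genes kept in that interval, 3 had a log2 ratio below 0, against 44.9% of all genes. More than 2-fold lower was 1 of them, Syt13, beside 7.81% of all genes. Syt13, a synaptotagmin gene, had 2.10 RPKM in WT and 0.506 RPKM in Kai1-/- PCs (log2 ratio -1.86). It passed the filter through its WT value. The median log2 ratio of the 8 genes was 0.09, and the highest was 0.55, for Chst1.

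**Figure D3:**
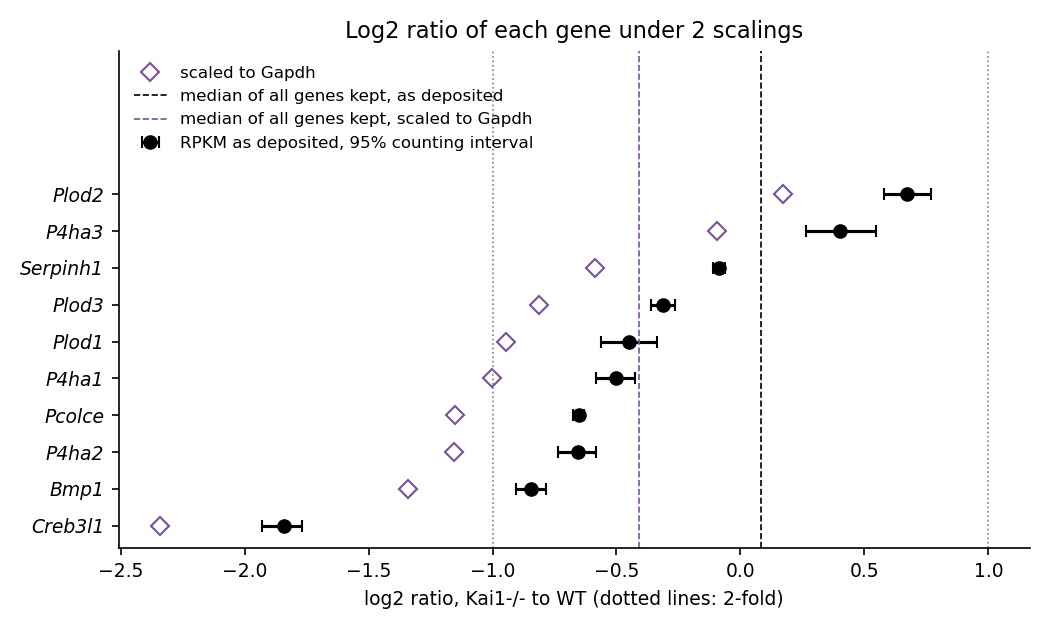
Log2 ratio of Kai1-/- to WT of each gene, from the RPKM as deposited (black, with 95% counting intervals) and with both libraries scaled to Gapdh (open diamonds). Dashed lines mark the median of all genes kept on each scale, 0.08 and -0.41, and dotted lines mark 2-fold. Creb3l1 lay past the lower 2-fold line on both scales, and P4ha3 lay on different sides of 0.

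Further genes of collagen maturation were taken from a list of 27 genes that act beside the 10, which matched 28 symbols in the files. The filter kept 22, of which 2 (Pcolce2 and Tmem38b) were past 2-fold in the lower direction and 0 in the higher. Of all genes kept, 7.81% were more than 2-fold lower and 7.98% higher, so the count of 2 is near the share of all genes. The log2 ratio of 17 of the 22 was below 0, against 44.9% of all genes, and their median was -0.28. Pcolce2, a second enhancer of the C-proteinase, had 19.2 RPKM in WT and 4.68 RPKM in Kai1-/- PCs (log2 ratio -2.02, -2.18 to -1.90). The ratio of Pcolce to Pcolce2 was 53.0 in WT PCs and 139 in Kai1-/- PCs. Tmem38b, an ER cation channel whose loss causes brittle bone disease, had 3.12 RPKM in WT and 1.31 RPKM in Kai1-/- PCs (log2 ratio -1.19). From about 245 and 93 estimated reads, its counting interval of -1.62 to -0.90 reached across the 2-fold line.

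The most abundant genes of this list stayed within 2-fold. Ppib, the prolyl isomerase cyclophilin B, had 447 RPKM in WT and 631 RPKM in Kai1-/- PCs (log2 ratio 0.50), the highest ratio of the list and close to that of Gapdh. P4hb had a log2 ratio of 0.23, below that of Gapdh. Fkbp10, a collagen chaperone of the FKBP family, had a log2 ratio of -0.20, Glt25d1, the galactosyltransferase that acts on hydroxylysine, -0.21, and Leprel4, a partner of the hydroxylase complexes, -0.05. Some genes are named for their role rather than for their size of difference. The partners of Ppib in the prolyl 3-hydroxylase complex, Lepre1 and Crtap, had log2 ratios of -0.71 and -0.30. The N-propeptidase Adamts2 had 50.0 RPKM in WT and 30.3 RPKM in Kai1-/- PCs (log2 ratio -0.72), close to that of Bmp1. Bmp1 to Adamts2 stood at 1.20 in WT PCs and 1.10 in Kai1-/- PCs. Tll1, a protease of the Bmp1 family, was lower than Bmp1 in both libraries, at 10.6 and 7.68. Colgalt2, Tll2, Mia3 and Mia2 were listed at 0 in both libraries, and Leprel1 and Adamts3 were below 1 in WT PCs and listed at 0 in Kai1-/- PCs. Whether a 0 in both libraries, as for Mia3, means no RNA or a gene not quantified was not tested.

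**Figure D4:**
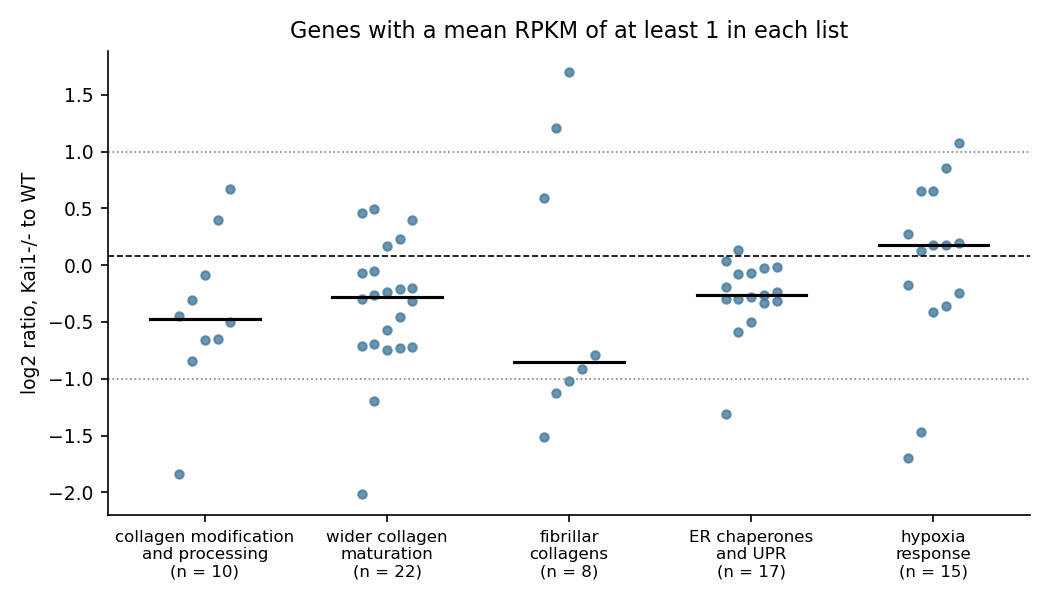
Log2 ratio of Kai1-/- to WT, RPKM as deposited, of each gene kept in 5 lists. Thick lines are list medians, the dashed line is the median of all genes kept (0.08) and dotted lines mark 2-fold. The collagen modification and processing genes had a median of -0.48, between those of the fibrillar collagens (-0.85) and of the wider collagen maturation list (-0.28).

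The fibrillar collagen genes, the substrates of this machinery, differed both ways. Past 2-fold were 3 of 8 kept genes downward and 2 upward, beside 7.81% and 7.98% of all genes. Col1a2 (-1.13), Col5a1 (-1.52) and Col5a3 (-1.02) were lower, and Col2a1 (1.70) and Col11a1 (1.21) were higher. Col1a1 (-0.79), Col5a2 (-0.91) and Col3a1 (0.59) lay within 2-fold, and the median log2 ratio of the kept genes was -0.85.

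P4ha1, P4ha2 and Plod2 are known to respond to hypoxia, and collagen folding depends on the general ER chaperones. In a list of 15 kept hypoxia response genes the median log2 ratio was 0.17, beside 0.08 for all genes. Of these 15, 2 were past 2-fold downward and 1 upward, beside 7.81% and 7.98% of all genes. The glycolytic enzyme gene Eno1 had 556 RPKM in WT and 1173 RPKM in Kai1-/- PCs, and the vascular peptide gene Adm had 28.8 and 8.82, so that genes of this list lay far apart in both directions. The glycolytic genes Aldoa and Pgk1 had log2 ratios of 0.17 and 0.65, and Ndrg1 one of -1.47. In a list of 17 ER chaperone and unfolded protein response genes the median was -0.26. Below 0 were 15 of 17 ratios, against 44.9% of all genes. With the largest RPKM among the chaperones of that list, Calr had a log2 ratio of -0.02 and Hsp90b1 of -0.07. The stress-induced factor Ddit3 was the 1 gene of the 17 past 2-fold, beside 7.81% of all genes in the lower direction. Its level was 479 RPKM in WT and 193 RPKM in Kai1-/- PCs. The part of hypoxia or of ER stress in the values of the 10 genes was not tested.

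Markers of cell types differed between the libraries as well. The mural markers Acta2 (3823 and 2580), Pdgfrb (44.7 and 31.6) and Cspg4 (15.4 and 8.27) were present in both, while the pericyte genes Rgs5, Kcnj8 and Abcc9 had an RPKM below 1 in both. Among mural markers under the filter, Rgs5 (0.063 and 0.233) and Kcnj8 (0 and 0.791) were higher in Kai1-/- PCs. Abcc9, Des, Notch3 and Anpep, also under the filter, were lower. Of 7 mural markers kept, 4 were more than 2-fold lower in Kai1-/- PCs and 7 had a log2 ratio below 0. The shares over all genes were 7.81% and 44.9%. The contractile genes Tagln and Cnn1 had log2 ratios of -1.04 and -1.28. Myh11 (2.96 and 0.346) and Mcam (4.90 and 0.264) had ratios of -2.78 and -3.78. Both were below 1 RPKM in Kai1-/- PCs and passed the filter through their WT value. The counts of 4 and 7 mural markers thus rest partly on the filter. The summed RPKM of all 13 was 4646 in WT PCs and 2978 in Kai1-/- PCs. Of 7 fibroblast and adventitial markers kept, 4 were past 2-fold in the lower direction and 1 in the higher, beside 7.81% and 7.98% of all genes. The summed RPKM of all 9 was 1380 and 592, most of it from Ly6a (log2 ratio -1.25). Among the others past 2-fold, Pdgfra (-1.15), Dpt (-1.84) and Pi16 (-2.10) were lower and Cd34 (2.35) was higher, each at a mean below 5 RPKM. Pdgfra, Dpt and Pi16 were below 1 RPKM in Kai1-/- PCs and passed the filter through their WT value. The count of 4 fibroblast and adventitial markers thus rests partly on the filter. The matrix genes Dcn (10.8 and 8.22) and Col14a1 (7.02 and 4.15) lay within 2-fold. Of 4 macrophage markers kept, 4 were more than 2-fold lower in Kai1-/- PCs, beside 7.81% of all genes, with a median log2 ratio of -2.10. They were Csf1r (11.7 and 2.66), Fcer1g (11.3 and 2.47), Tyrobp (10.4 and 2.37) and Lyz2 (3.44 and 1.09). The summed RPKM of all 14 was 38.9 and 9.18, with the defining markers Emr1, C1qa, C1qb and C1qc listed at 0 in both libraries. Of 10 endothelial markers 9, among them Pecam1 and Tek, were below 1 RPKM in both libraries, and the other, Egfl7, had 2.28 RPKM in WT and 7.39 RPKM in Kai1-/- PCs. All 6 epithelial markers, led by Cdh1, Krt14 and Krt18, were below 1 in both. The part of these differences in the values of the collagen modification and processing genes was not tested.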

How the data were processed

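RNA sequencing of aortic PCs gave 1 WT and 1 Kai1-/- library. The authors used TopHat 2.0.9 and Bowtie to align reads (build mm9) and deposited RPKM values per RefSeq gene, 1 per library, and the submitters' processing notes also name Cufflinks. The deposited RPKM values come with no read totals. How reads were counted by strand was not given in the sources used here.

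The files list 20462 rows. Rows with no symbol (38) were dropped, and the 153 symbols on several rows were averaged. Genes whose mean over both libraries reached 1 RPKM were kept, 10068 in all. The members and gene lists were chosen with earlier results of these data known. All 10 members were named. Of the wider list, genes past 2-fold and the 5 with the highest mean RPKM were named, and of each other list the 3 with the highest mean and those past 2-fold at a mean of 5 RPKM or more. Further genes were chosen for their role or after their values were seen.

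Reads were estimated from the steps of low RPKM values of genes with 1 transcript over 800 bases in GENCODE M1 on NCBI37 (the same build as mm9), with a fragment length of 200 bases. Of these values, 81.2% in WT and 78.1% in Kai1-/- came out whole to a tolerance of 0.15 reads. For each gene the length of its longest protein-coding transcript was used, so its reads are approximate. Intervals of ratios are exact binomial and those of levels exact Poisson. Promoters came from RefSeq (GRCm38.p6). Scripts were tested on simulated data. Python 3.11.15 was used with numpy 2.4.6, pandas 2.3.3, scipy 1.17.1 and matplotlib 3.10.9.

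Alternatives were pseudocounts of 1 and 0.01 RPKM, 4 other scalings, other filters on mean RPKM, and summed instead of averaged repeated symbols.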

Additional observations from a re-analysis of the deposited data

How the results depend on the processing

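For the 10 genes and the wider list, scaling of the libraries moved the counts past 2-fold furthest among the settings tried. Scaled to Gapdh, 5 of the 10 genes were more than 2-fold lower beside 18.4% of all genes, and their median log2 ratio was -0.97. In the wider list 8 of 22 genes were then more than 2-fold lower. Of all 10068 genes kept, 1856 were lower and 278 higher. Scaled to the same RPKM sum, 4 of the 10 genes and 8 of the 22 in the wider list were more than 2-fold lower, beside 18% of all genes. The median of the 10 genes was then -0.96, and 1816 of all genes were lower and 286 higher. The median of the 10 genes was -0.56 once all genes were centred on their median and -0.60 once the libraries shared an upper quartile. With no filter on mean RPKM, 1878 of 20211 genes were lower (9.29%) and 1205 higher (5.96%). A minimum mean of 5 RPKM left 6518 genes, of which 350 were lower (5.37%) and 511 higher (7.84%). Fewer genes are counted under the stricter minimum. In the wider list 1 gene was more than 2-fold lower with a pseudocount of 1 RPKM, and 1 with the minimum mean of 5 RPKM.

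Of 70 recomputed log2 ratios of the 10 genes, 2 changed sign, both of P4ha3. Creb3l1 stayed more than 2-fold lower in every setting. No paired analysis was possible because only 1 WT and 1 Kai1-/- library were analysed. Each of the 10 genes had at least 742 estimated reads in either library, and with 1 library a genotype the spread between replicates is unknown.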
